A study of Mus musculus with 2 samples.

Results

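Late spermatocytes of the Pabpc6 stage were the 980 barcodes, of 12768 in the data set, that scored highest for the genes Pabpc6, Nutm2 and Ccna1. The WT library gave 539 of them and the KO library 441. They were selected on measured values. Each barcode was scored on 10 sets of 3 marker genes, which run in order from pachytene spermatocytes (set A, led by Piwil1) through these late spermatocytes (set B) to early round spermatids (set C, led by Fam24a) and the later spermatids (sets D to J). A barcode became a member when its mean z-score for set B was the highest of the 10. Barcodes with UMIs from at least 2 of 10 marker genes of somatic cells, spermatogonia and early spermatocytes were not scored, which removed 365 barcodes in WT and 2734 in KO and left 5391 and 4278.

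The study profiled dissociated testes of 12-week-old C57BL/6 mice by single-cell RNA sequencing on a microfluidic platform. The WT mice carried intact Alkbh5. The KO mice were Alkbh5-/-, homozygous offspring of heterozygous crosses and deficient in every cell, so that a difference in spermatocytes cannot be told apart from one that starts in the somatic cells around them. GEO lists 1 library per genotype, and the methods describe testes from several mice per genotype without saying whether they were pooled. There was therefore no replicate error and no test between genotypes, and all intervals below are 95% intervals that cover counting error only.

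ALKBH5 removes the methyl group of N6-methyladenosine from RNA, and mice without it are infertile in the male. Late spermatocytes are the last cells before the meiotic divisions: the synaptonemal complex that held the homologous chromosomes together is taken down, CDK1 with its cyclins becomes active, and Aurora and Polo kinases build the spindle. Transcripts for the coming spermatid stages already accumulate and are stored with RNA-binding proteins, while genes of the X and Y chromosomes are largely silent in pachytene and late spermatocytes.

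Alkbh5, at chr11:60536381-60558512 in GRCm38, was measured before any other gene. It gave 168 UMIs in the WT members, or 18.7 counts per 1000000 UMIs (CPM, interval 16.0 to 21.8). The KO members gave 0 UMIs of 5927366, with a 95% upper limit of 0.622 CPM. Taken at a floor of 3 counts over the KO members, the KO level was 37.0-fold lower, and the upper limit of the log2 ratio from the exact interval was -4.90. The genotype labels therefore matched the transcript.

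The label of the cells was checked against genes that the selection did not use. Their list was chosen with earlier results of these data known, so it is not an independent check. Of 15 genes of late spermatocytes and the meiotic division, 14 were listed in the tables, and all 14 had at least 20 UMIs in the members. In WT their summed level was 2795 CPM in the members, against 1913 CPM in set A cells with a set A score above 0 and 1222 CPM in set C. The KO library gave 2648, 1756 and 1329 CPM. The sum of this list was thus highest in the cells that carry the label, in both libraries, although 5 of the 14 genes in WT and 4 in KO were lower than in set A.

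The set B score led the next set by less than 0.25 in 81 WT members (15.03%) and 91 KO members (20.6%), and 138 WT and 349 KO barcodes missed membership by less than that. Just inside this border Pabpc6 stood at 1299 CPM in WT and 1234 CPM in KO, and just outside at 1066 and 528 CPM. Set B won with a score below 0, that is below the average barcode, in 9 WT and 29 KO members. Values without these cells are also given for several of the lists and of the genes named. Scrublet called 22 WT and 15 KO members doublets, and they were kept. Between the libraries 45 barcode sequences recurred, 4 of them in WT members and 3 in KO members, and none was a member in both. Members of the WT library had a median of 14170 UMIs, and those of the KO library 11110. The median numbers of detected genes were 3711 and 3376.

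Promoters of the genes that mark these cells are shown because many genes of the G2 to M phase carry a cell cycle homology region (CHR, TTTGAA or TTCGAA) and CCAAT boxes. Each window runs from 250 bases before to 50 bases after the RefSeq start in GRCm38.p6, written 5′ to 3′ along the gene, and capitals mark CHR and CCAAT matches on either strand. Ccna1, cyclin A1 of the male meiotic divisions, is at chr3:55055006-55055305 on the minus strand, and Nutm2, a member of the NUT family, at chr13:50467057-50467356 on the plus strand. Plk1, the Polo kinase of division entry, is at chr7:122159185-122159484 on the plus strand, and Ccnb2, cyclin B2, at chr9:70421505-70421804 on the minus strand.
Ccna1: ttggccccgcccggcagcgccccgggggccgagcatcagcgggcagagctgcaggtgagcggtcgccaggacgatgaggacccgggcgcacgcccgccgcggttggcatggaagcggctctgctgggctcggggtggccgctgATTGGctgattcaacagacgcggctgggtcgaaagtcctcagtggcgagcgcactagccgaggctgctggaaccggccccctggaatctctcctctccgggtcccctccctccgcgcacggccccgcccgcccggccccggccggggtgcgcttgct
Nutm2: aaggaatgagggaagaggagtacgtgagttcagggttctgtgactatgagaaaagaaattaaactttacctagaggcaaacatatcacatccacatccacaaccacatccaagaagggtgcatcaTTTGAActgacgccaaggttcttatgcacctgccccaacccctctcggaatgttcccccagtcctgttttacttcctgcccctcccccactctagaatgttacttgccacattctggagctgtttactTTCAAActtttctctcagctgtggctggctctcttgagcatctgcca
Plk1: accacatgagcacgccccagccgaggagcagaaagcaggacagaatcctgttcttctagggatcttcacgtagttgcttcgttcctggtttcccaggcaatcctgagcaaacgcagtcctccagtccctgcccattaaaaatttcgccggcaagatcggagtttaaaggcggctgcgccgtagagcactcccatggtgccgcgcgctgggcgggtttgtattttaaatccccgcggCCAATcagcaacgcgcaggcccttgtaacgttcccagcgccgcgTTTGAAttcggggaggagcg
Ccnb2: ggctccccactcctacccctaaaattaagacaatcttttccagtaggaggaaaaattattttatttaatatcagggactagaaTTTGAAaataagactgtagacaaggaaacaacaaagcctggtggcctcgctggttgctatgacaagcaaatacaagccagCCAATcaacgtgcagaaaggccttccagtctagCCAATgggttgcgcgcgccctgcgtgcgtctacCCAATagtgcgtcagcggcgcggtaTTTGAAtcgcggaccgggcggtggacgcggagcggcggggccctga
The Plk1 window held 1 CHR and 1 CCAAT match close to the start, and the Ccnb2 window 2 and 3. The Nutm2 window held 2 CHR matches and no CCAAT, and the Ccna1 window 1 CCAAT and no CHR. Of the 15 genes that led in the members (named below), 12 had a promoter in the table and 4 of these, Kif23, Tmem106a, Zbtb5 and Plk1, held both motifs, or 33.3%. Both motifs occurred in 7.70% of all 27025 promoters and in 6.82% of the 9425 promoters of genes with at least 20 UMIs in the members. Among genes of spindle and chromosome passengers 8 of 17 promoters held both (47.1%), among kinases and cyclins of division entry 6 of 14 (42.9%), and among synaptonemal complex genes 2 of 15 (13.3%). The motifs were chosen after the genes were known, and a match describes letters in a window only.

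Late spermatocytes took nearly the same share of scored barcodes in both libraries. They made up 9.998% of the WT barcodes (9.21 to 10.8%, exact Clopper-Pearson) and 10.3% of the KO barcodes (9.41 to 11.3%), a KO to WT ratio of 1.03 (0.907 to 1.17). The share depended on what it was taken of. Over all barcodes WT stood at 9.36% and KO at 6.29%, a ratio of 0.672 (0.591 to 0.763). Over the cells of sets A, B and C together WT stood at 33.2% and KO at 24.7%, a ratio of 0.743 (0.653 to 0.844). Set A held 356 WT and 648 KO cells, and 272 of those KO cells, against 44 in WT, had a set A score below 0. How far this uneven set A moves the last ratio was not tested.

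**Figure D1:**
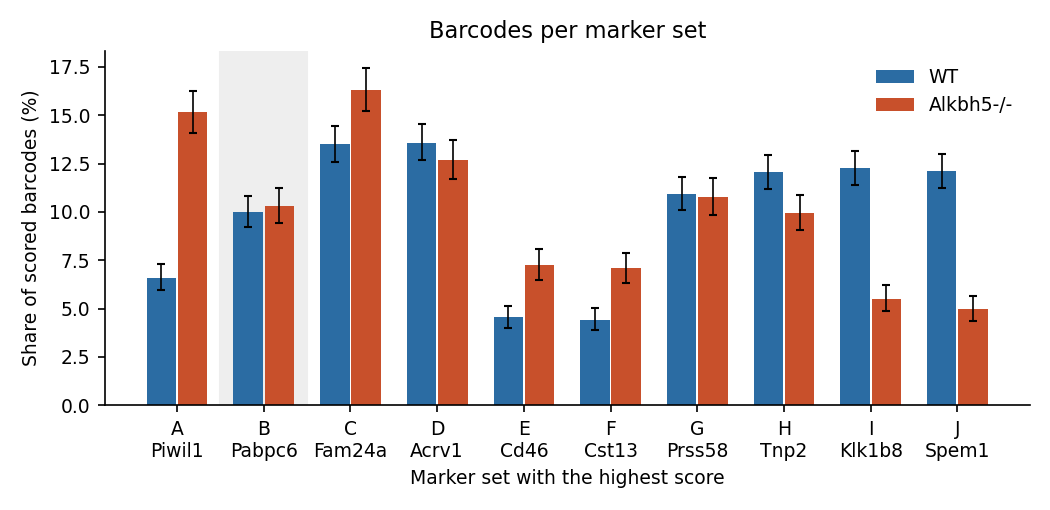
Share of scored barcodes in each marker set (vertical axis, percent) for the WT and KO libraries, with exact 95% binomial intervals as error bars, which cover counting error only. The late spermatocytes, set B on the grey band, stand at 9.998% in WT and 10.3% in KO with overlapping intervals.

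The marker genes peaked in the members, as the selection fixes, with with different profiles. Pabpc6, at chr17:9666495-9669717, encodes a poly(A)-binding protein paralog. It was already high in set A, at 1244 CPM in WT and 946 CPM in KO, stood at 1534 and 1529 CPM in the members and was down to 370 and 433 CPM in set C. By set D it was at 48.2 and 72.6 CPM, the lowest of these 4 sets in each library. Pabpc6, Pabpc1 and Pabpc2 are similar in sequence, and how reads that match several of them were assigned is not given.

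Ccna1, at chr3:55045469-55055501, had a narrower peak. It measured 207 CPM in set A, 483 CPM in the members and 202 CPM in set C of WT, and 148, 456 and 214 CPM in KO. Nutm2, at chr13:50467307-50475355, had few UMIs in the neighbouring sets. It gave 253 UMIs in the WT members (28.2 CPM, 24.9 to 31.9) against 2 UMIs in set A and 12 in set C, and 135 UMIs in the KO members (22.8 CPM, 19.1 to 27.0) against 0 and 12. Between genotypes the members' log2 ratios of KO over WT were -0.01 for Pabpc6, -0.08 for Ccna1 and -0.31 for Nutm2, values that the selection holds together. Per cell, the median was 20 UMIs of Pabpc6 in WT and 16 in KO, and 7 and 5 UMIs of Ccna1.

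**Figure D2:**
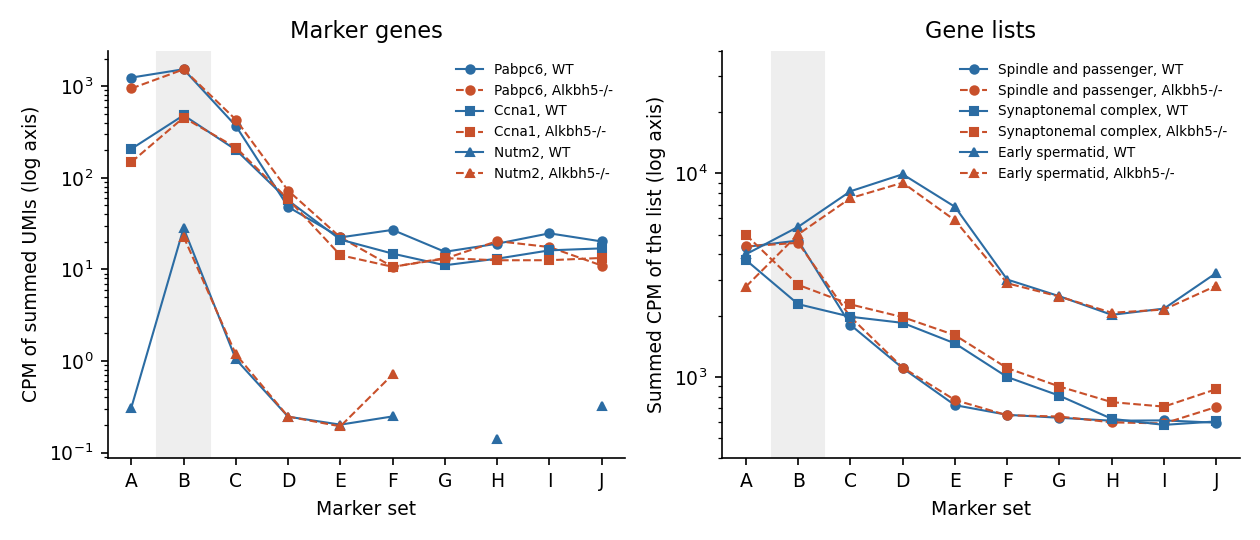
Left, CPM of Pabpc6, Ccna1 and Nutm2 in marker sets A to J for WT (solid) and KO (dashed, labelled Alkbh5-/-) on a log axis, without points where a gene had no UMI. Right, summed CPM of 3 gene lists. All 3 marker genes are highest on the grey band of the late spermatocytes, where the spindle list is still near its set A level and the early spermatid list is below its set C level.

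Besides Ccna1, 14 genes led in the members, ranked by the smallest excess over sets A and C in either library among genes detected in 25% or more of the members of each library and with at least 100 UMIs in each. Among them, Kif23, a kinesin of the central spindle, was at 107 CPM in the WT members against 39.8 in set A and 35.3 in set C, and at 115, 56.3 and 34.4 CPM in KO. Cenpe, a kinetochore kinesin, was at 268, 107 and 103 CPM in WT and at 300, 149 and 119 CPM in KO. Plk1 was at 151, 50.2 and 79.7 CPM in WT and at 138, 41.2 and 71.1 CPM in KO.

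Dnaic2, an intermediate chain of axonemal dynein, had the largest excess, with 80.6 CPM in the WT members against 32.6 and 23.1 CPM in sets A and C, and 73.9 against 17.9 and 19.4 CPM in KO. Wrn, the RecQ helicase lost in Werner syndrome, had 129 against 59.3 and 37.2 CPM in WT. The transcription factor genes Rfx8, Sox17 and Zbtb5 stood at 226, 25.1 and 39.4 CPM in the WT members and at 188, 26.7 and 40.3 CPM in the KO members. Rhcg, an ammonia transporter, and Acvr2a, a type II activin receptor, were at 96.3 and 19.97 CPM in WT and at 74.9 and 21.8 CPM in KO. The list was completed by Nsmaf, Tmem106a, Shisa3 and the long noncoding RNA Gm32916. The excess of the 15 genes ranged from 0.89 to 1.31 on the log2 scale, and all 15 had clear levels in sets A and C. Ccna1, among them, and Nutm2 are marker genes of set B, so the selection favours low levels of both in sets A and C. With sets A and C limited to cells with an own score above 0, 11 of the 15 were still among the leading 15.

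**Figure D3:**
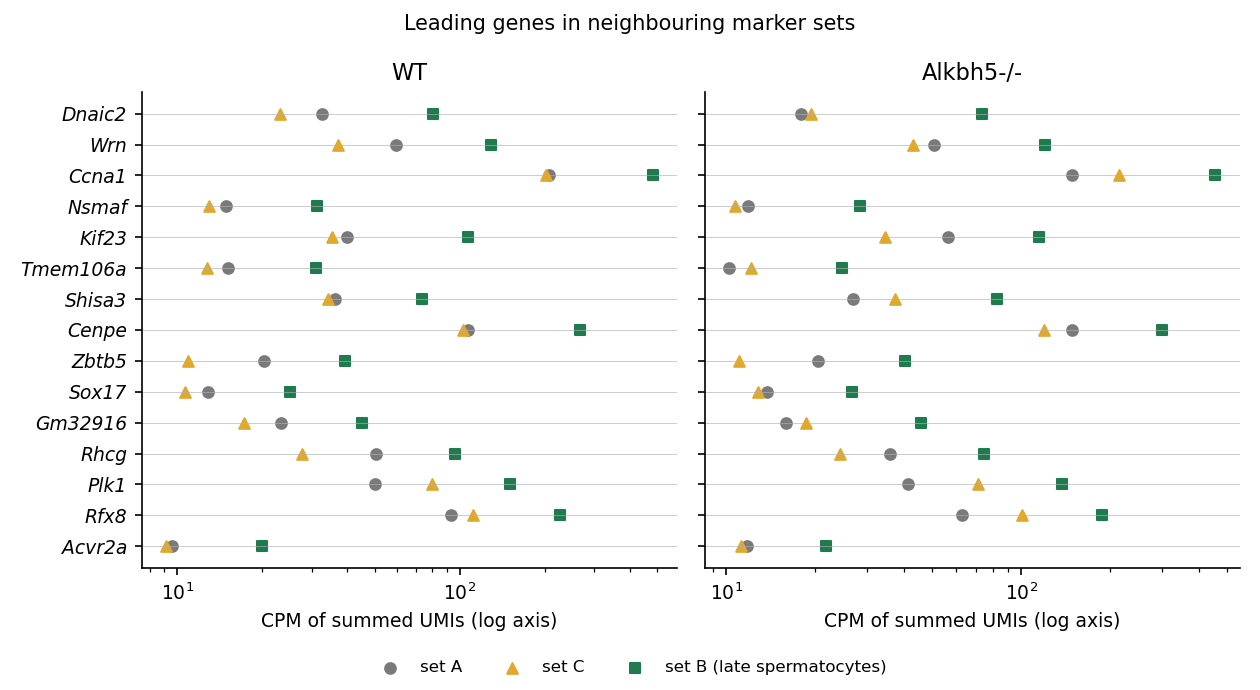
CPM of the 15 leading genes (log axis) in set A, set B and set C of WT (left) and KO (right). The squares of set B lie to the right of both neighbours for every gene in both libraries, since the genes were ranked by that distance, and the order of sets A and C differs between genes.

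The kinases and cyclins that start the division reached the members at different times. Ccnb1, cyclin B1, was at 133 CPM in set A, 480 CPM in the members and 232 CPM in set C of WT, and at 144, 436 and 243 CPM in KO. Cdc25a, a phosphatase that activates CDK1, followed the same course with 33.4, 107 and 62.6 CPM in WT. Cdk1 itself was as high in set A as in the members (158 and 152 CPM in WT) and low in set C (21.7 CPM). Cks2, a CDK-binding subunit, had its maximum earlier, with 821 CPM in set A, 110 CPM in the members and 19.9 CPM in set C, and 655, 121 and 15.7 CPM in KO. Cdc25c was highest after the members, at 3.55, 24.2 and 46.8 CPM in WT. Of all genes with at least 20 UMIs, 15.6% were at least 2-fold higher and 15.1% at least 2-fold lower in the members than in set A in WT, and 18.5% and 21.9% in KO. Against set C the shares were 23% higher and 19.6% lower in WT, and 23.3% and 17.4% in KO. Of 18 entry genes, 5 were at least 2-fold higher and 8 at least 2-fold lower in the members than in set A in each library, and against set C 8 in WT and 9 in KO were at least 2-fold higher.

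Spindle and chromosome passenger genes were uniform against set C. All 23 genes of the list were higher in the members than in set C in both libraries, and 19 in WT and 15 in KO were at least 2-fold higher. Against set A they were mixed, with 15 higher and 8 lower in WT and 14 and 9 in KO. Aurka, the spindle pole kinase, was at 290, 486 and 157 CPM in sets A, B and C of WT and at 230, 480 and 180 CPM in KO. Smc4, a condensin subunit, was at 1713, 1489 and 673 CPM in WT. Birc5, the survivin of the passenger complex, was at 280, 287 and 124 CPM. The summed list was at 4346, 4675 and 1801 CPM in WT and at 4372, 4556 and 1969 CPM in KO, so it was near its set A level in the members and dropped off after them.

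Genes of the spindle checkpoint and of anaphase were mixed against both neighbours. Against set C, 7 of 19 in WT and 9 of 19 in KO were at least 2-fold higher in the members, and against set A 2 and 1 were. Cdc20, the activator of the anaphase-promoting complex, was at 198, 231 and 80.7 CPM in sets A, B and C of WT, and Pttg1, securin, at 469, 464 and 174 CPM. Espl1, the separase that securin holds back, was at 21.9, 34.0 and 9.04 CPM. Bub1, a checkpoint kinase, was instead highest in set C, at 73.8, 90.2 and 192 CPM in WT and at 116, 103 and 177 CPM in KO.

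Genes of meiotic prophase were mostly lower in the members than in set A. Against set A, 7 of 14 synaptonemal complex and axis genes were at least 2-fold lower in the WT members and 7 of 14 in the KO members, and 1 in each, Rec8, was at least 2-fold higher. Of 24 recombination and repair genes, 13 in WT and 14 in KO were at least 2-fold lower and 0 higher. Against set C the recombination genes were mostly higher, 17 of 24 in WT and 19 in KO, 10 of them at least 2-fold in each library. Sycp1, of the transverse filaments, was at 489 CPM in set A and 115 CPM in the WT members. Hormad1, an axis protein, was at 852 and 346 CPM. Rec8, the meiotic cohesin subunit, was at 1.70, 10.8 and 51.5 CPM in sets A, B and C, higher in each set than in the one before. Hist1h1t, the testis linker histone, was at 150 CPM in set A, 9.15 CPM in the members and 13.2 CPM in set C.

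Genes of the coming spermatid had begun. Of 18 early spermatid and acrosome genes, 10 in WT and 13 in KO were at least 2-fold higher in the members than in set A, and 11 in each library were at least 2-fold lower than in set C. Spam1, a sperm surface hyaluronidase, was at 4.48, 16.0 and 258 CPM in sets A, B and C of WT, and Tex36 at 17.1, 102 and 1074 CPM. Zpbp2 and Spata16, of the acrosome, did not follow this order and were highest in the members, at 1622 and 546 CPM against 1169.8 and 317 CPM in set C. Some genes dipped in the members instead, and were named after their values were seen. H3f3b, a gene of the replacement histone H3.3, was at 1918, 576 and 1416 CPM in WT and at 2096, 667 and 1282 CPM in KO, and Bet1, of transport between the endoplasmic reticulum and the Golgi, at 75.04, 26.3 and 171 CPM in WT.

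Genes of poly(A) tails and mRNA storage, among them relatives of Pabpc6, were mixed. Of 21 in WT, 0 were at least 2-fold higher and 3 at least 2-fold lower than in set A, and 2 were higher and 5 lower than in set C. Pabpc1, the general cytoplasmic poly(A)-binding protein, was at 4366, 4476 and 3832 CPM in sets A, B and C of WT, and the testis paralog Pabpc2 at 747, 1121 and 901 CPM. Papolb, the testis poly(A) polymerase, was at 234, 421 and 408 CPM, so that unlike Pabpc6 it was as high after the members as in them. Ddx25, an RNA helicase of the chromatoid body, was at 873, 1112 and 844 CPM. Paip1, which binds the poly(A)-binding protein, was at 170.004 CPM in set A, 33.4 CPM in the members and 5.997 CPM in set C, while Paip2, an inhibitor of that protein, was at 127, 126 and 360.2 CPM.

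The members were themselves spread along this course. By their next highest set, 282 WT and 236 KO members leaned to set A, 216 and 175 to set C and 41 and 30 to another set. Those that leaned to set A had a median of 16831 UMIs in WT and 12429 in KO, and those that leaned to set C 11201 and 10256. The spindle list summed to 5581 CPM in the members that leaned to set A and 3412 CPM in those that leaned to set C in WT, and to 5487 and 3193 CPM in KO. Outside the panel, Spam1 was at 1.54 and 32.9 CPM in the 2 kinds of WT members and at 3.49 and 51.5 CPM in KO, and Tssk4, a testis serine kinase, at 4.06 and 103.5 CPM in WT. In the other direction, Pcbp1, an RNA-binding protein gene, was at 131 and 18.9 CPM in WT and at 125 and 20.04 CPM in KO, and Tomm34, of mitochondrial import, at 32.4 and 3.83 CPM in WT. Members that leaned to neither set carried protamine and other late spermatid RNA, 47950 CPM for the list in WT against 2604 CPM in those that leaned to set A.

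Between genotypes the members differed little in most genes. Of 8240 genes with at least 100 UMIs, 201 (2.44%) were at least 2-fold higher in KO and 73 (0.886%) at least 2-fold lower, and the median log2 ratio was 0.03. With 20 UMIs as the minimum, used for the lists below, 7.69% of 13213 genes were at least 2-fold higher and 2.52% lower, with a median of 0.07. Of 12511 autosomal genes at this minimum, 6968 were higher in KO by any amount. The excess of genes at least 2-fold higher depended on which members were taken. Without the 9 WT and 29 KO members with a set B score below 0, 100 genes were higher and 73 lower. Among members that leaned to set C alone 40 were higher and 42 lower, of 5433 genes. Among those that leaned to set A the excess remained, with 171 higher and 66 lower of 6348 genes. With cells thinned to 6302 UMIs each, 80 were higher and 37 lower, among 5616 genes. This alternative and the others are given in the closing section.

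**Figure D4:**
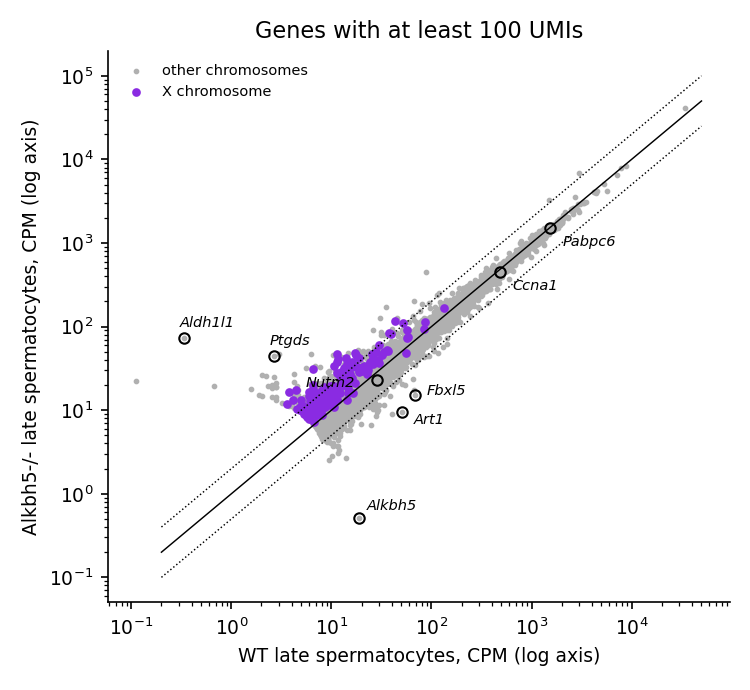
CPM in KO late spermatocytes against CPM in WT late spermatocytes (both log axes) for the 8240 genes with at least 100 UMIs, with a sum of 0 drawn at 3 counts. The solid line is equality and the dotted lines are 2-fold. Pabpc6 and Ccna1 lie on the line, Alkbh5, Art1 and Fbxl5 below it, Aldh1l1 and Ptgds above it, and the X chromosome genes mostly above it.

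The division genes lay close to equal levels in WT and KO members. Over its 23 genes the spindle list had a median of -0.02 on the log2 scale, with 10 higher, 13 lower and none past 2-fold. For the 18 entry kinases and cyclins the median was -0.01, and 4 of them were at least 2-fold higher in KO, all on few UMIs. These were Ccnb3, an X-linked cyclin, with 12 UMIs in WT and 33 in KO, Ccna2 with 23 and 43, Cks1b with 41 and 75, and Fbxo5 with 7 and 17. Without members with a score below 0, 16 genes of the list still had 20 UMIs and none of these was past 2-fold. Ccnb3 and Fbxo5 were then under the minimum, and Ccna2 and Cks1b had ratios of 0.85 and 0.77. Over 19 checkpoint, anaphase-promoting complex and cohesion genes it was 0.11. For single genes, the log2 ratio of Aurka was -0.02 (-0.09 to 0.05), of Ccnb1 -0.14 (-0.21 to -0.07), of Plk1 -0.13 (-0.25 to 0.00) and of Cenpe 0.16 (0.07 to 0.25). The pachytene genes (median -0.01 over 14) and the early spermatid genes (0.01 over 18) were as close.

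Prophase gene lists had medians above that of all genes in KO, more so with the low-scoring cells than without them. The synaptonemal list had a median of 0.38 over 14 genes, with 10 higher and 2 past 2-fold, and of 0.20 without members with a score below 0. Sycp1 was at 115 CPM in WT and 241 CPM in KO, a log2 ratio of 1.07 (0.96 to 1.19), and of 0.57 without those cells. Sycp2 was at 190 and 290 CPM, a ratio of 0.61 that stayed at 0.54. The recombination list had a median of 0.42 over 24 genes, 18 higher and 4 past 2-fold (Dmc1, the X-linked Tex11, Exo1 and Topbp1), and of 0.24 without those cells. Its median was 0.10 for genes with at least 100 UMIs, 0.09 with equal weight for the kinds of members and 0.06 among members that leaned to set C, against medians of all genes of 0.03. Among members that leaned to set A it was instead 0.62, against 0.06 for all genes. Dazl, an RNA-binding protein of earlier germ cells, was at 30.6 and 128 CPM, a ratio of 2.07 (1.87 to 2.27) and of 1.37 without the low-scoring cells.

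Of 14 late spermatid genes 11 were lower in KO, and the list median was -0.30, or -0.29 without the low-scoring cells. Smcp, of the sperm mitochondrial capsule, was at 659 CPM in WT and 460 CPM in KO, a log2 ratio of -0.52 (-0.58 to -0.45). Prm1, protamine 1, was at 2961 and 2342 CPM, a ratio of -0.34. Oaz3, the sperm antizyme, was at 106 and 51.0 CPM, a ratio of -1.05 (-1.24 to -0.86), the sole gene of the list past 2-fold. Protamine RNA belongs to later cells, and Prm1 was also lower in KO in set A (3348 and 1224 CPM) and set C (3532 and 1552 CPM). Among members that scored above 0 and led by at least 0.25 the list median was -0.04.

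Poly(A) and storage genes had a median of 0.07 over 21 genes, testis histones 0.10 over 13 and energy isozymes 0.10 over 22. Testis histones had a median of -0.05 without the low-scoring cells, with 5 higher and 8 lower, and energy isozymes one of 0.05. For p53 and apoptosis genes the median was 0.36 over 12, of which 9 were higher and 3 past 2-fold. Without the low-scoring cells the p53 list had a median of 0.26 over 11 genes, 7 higher, none past 2-fold higher and 1 past 2-fold lower. Its median was 0.16 with the lead of 0.25, 0.12 among members that leaned to set C and 0.56 among members that leaned to set A. The m6A writers, readers and erasers, Alkbh5 included, had a median of 0.20 over 18 genes, 15 higher. Of 12511 autosomal genes, 6968 were higher in KO members. Without the low-scoring cells the m6A median was 0.12, with 14 higher. Fto, the other m6A demethylase, was at 15.2 CPM in WT and 17.9 CPM in KO, a log2 ratio of 0.24 (-0.14 to 0.61). Ythdc2, a helicase reader needed at meiotic entry, was at 4.80 and 9.28 CPM, a ratio of 0.95 (0.35 to 1.56).

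Among single genes, Aldh1l1, the cytosolic formyltetrahydrofolate dehydrogenase, differed most. The WT members had 0 UMIs and the KO members 436 (73.6 CPM), 220-fold higher against a floor of 3 counts over the WT members. The lower limit of the log2 ratio from the exact interval was 7.48. In set C it was at 1.56 and 74.7 CPM, a log2 ratio of 5.58 (4.91 to 6.34). Ptgds and Lcn2 were at 2.68 and 3.01 CPM in WT and at 44.9 and 46.9 CPM in KO, with log2 ratios of 4.07 and 3.96. Without the low-scoring cells Ptgds was at 31.8 CPM and Lcn2 at 25.2 CPM in KO, with ratios of 3.75 and 3.05. Both were among the Leydig markers, and in KO both were higher still over all set A cells (513 and 478 CPM). In KO set A cells with an own score above 0 they were at 33.3 and 25.5 CPM, below the members. Clu, also a Sertoli marker, was at 2.68 and 25.1 CPM, and at 1.91 and 11.5 CPM without those cells. The noncoding RNA genes 4930401C15Rik and Gm17494 had ratios of 2.92 and 2.77, and Slc22a30, an organic anion transporter family member, 2.76. Gm11942, Pcna-ps2 and Rpl34-ps1 (ratios 7.66, 3.72 and 3.05) are processed pseudogenes that can share reads with their parents and are uncertain.

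Among the genes that were lower in KO, Art1, an ADP-ribosyltransferase, gave 451 UMIs (50.3 CPM) in WT and 57 (9.62 CPM) in KO, a log2 ratio of -2.39 (-2.81 to -1.99), with -1.97 in set A and -2.23 in set C. Fbxl5, the iron-sensing ubiquitin ligase subunit, gave 607 and 89 UMIs (67.7 and 15.02 CPM), a ratio of -2.17 (-2.51 to -1.85), with -1.25 and -1.90 in sets A and C. Fxyd2, a sodium pump subunit, was at 40.1 and 8.94 CPM, a ratio of -2.16. Camk2n2, an inhibitor of CaM kinase II, was at 14.1 and 2.70 CPM, a ratio of -2.38, and Ptov1 at 11.7 and 3.04 CPM. Gm10638 and Mir124-2hg had ratios of -1.97 and -1.81. The antisense genes 4930500F10Rik and Kdm6bos (-1.93 and -1.91) are uncertain, since counting by strand is not stated, and Kdm6bos had a set C ratio of -0.20 (-0.63 to 0.23). These genes kept their direction in members that leaned to set A and in those that leaned to set C.

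X chromosome RNA was scarce in the members and higher in KO. It made up 0.317% of WT UMIs (0.313 to 0.320%) and 0.560% of KO UMIs (0.554 to 0.566%). No panel gene lies on X or Y. In set C the share was 1.17% in WT and 1.73% in KO, and in set D 1.94% and 3.44%. Against set A the members had a ratio of 1.55 in WT and 0.730 in KO. With set A limited to cells with a set A score above 0, at 0.105% and 0.272%, the ratios were 3.02 and 2.06, so the KO direction turned. Members that leaned to set A had 0.148% in WT and 0.341% in KO, and those that leaned to set C 0.491% and 0.739%, so X RNA was higher in the cells that leaned onwards.

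Of 397 X genes with at least 20 UMIs, 379 were higher in KO members, 159 at least 2-fold (against 7.69% of all genes) and 0 at least 2-fold lower, with a median log2 ratio of 0.83. Of 12511 autosomal genes, 6968 were higher in KO members, and autosomal medians lay between 0.00 and 0.11 over 19 chromosomes. The 67 X genes that were lower in barcodes not scored than in WT members had a median of 0.48, with 7 at least 2-fold higher. The 330 X genes at least as high in barcodes not scored had a median of 0.94, with 152 at least 2-fold higher. Autosomal genes split in this way had medians of -0.05 and 0.23. Tsga8, with the most X UMIs in WT, was at 135 CPM in WT and 165 CPM in KO, a log2 ratio of 0.29 (0.17 to 0.42). Cypt1, a cysteine-rich perinuclear theca gene, was at 52.2 and 110 CPM, a ratio of 1.08. Tmsb4x, thymosin beta 4, was at 42.8 and 117 CPM, a ratio of 1.45, and at 36.7 and 68.9 CPM without the low-scoring cells, a ratio of 0.91. H2afb1 was an exception, at 55.2 and 48.9 CPM. The X median was 0.74 without members with a score below 0, 1.13 among members that leaned to set A and 0.66 among those that leaned to set C. It was 1.94 in set A cells with an own score above 0, 0.68 in set C and 0.90 in set D, so a shift of the same sign was seen before and after the late spermatocytes.

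The X genes with autosomal retrocopies showed the same. Such retrocopies, as Pgk2 for Pgk1, serve cells in which the X is silent. All 8 X parents with at least 20 UMIs were higher in KO, 6 past 2-fold, with a median of 1.47. Their summed level was low, 61.3 CPM in WT and 173 CPM in KO, and 46.3 and 107 CPM without the low-scoring cells. Rpl10, a ribosomal protein gene, was at 11.5 CPM in WT and 46.7 CPM in KO, and at 4.83 and 13.8 CPM without those cells, while its retrocopy Rpl10l was at 342 and 334 CPM. The 11 autosomal copies had a median of -0.02, with Rbmxl2 lower at 12.3 and 5.74 CPM, a log2 ratio of -1.10 (-1.70 to -0.53).

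**Figure D5:**
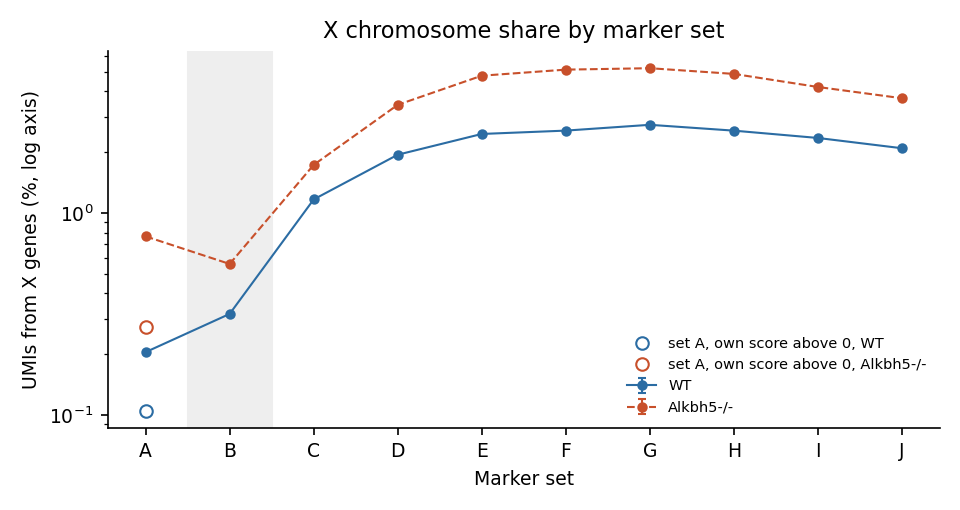
Share of UMIs from X chromosome genes (percent, log axis) in marker sets A to J for WT (solid) and KO (dashed), with exact binomial intervals that are smaller than the points. Open circles show set A cells with an own score above 0. The KO line lies above the WT line in every set, with the late spermatocytes at 0.317% and 0.560%.

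Summed markers of other cells were also higher in KO members. Leydig markers summed to 16.4 CPM in WT members and 140 CPM in KO members, with 1 of 10 at 0 in WT and none in KO. Much of the KO sum came from Ptgds and Lcn2, at 44.9 and 46.9 CPM, which were named above for their large ratios. All 8 Leydig markers with at least 20 UMIs were at least 2-fold higher in KO. Peritubular and stromal markers summed to 28.8 and 94.6 CPM, Sertoli markers to 31.6 and 78.3 CPM, spermatogonia markers to 24.4 and 70.4 CPM and early spermatocyte markers to 106 and 207 CPM. The Sertoli sum in KO includes Clu at 25.1 CPM, also named above. All 5 Sertoli markers with at least 20 UMIs were higher in KO, 2 of them at least 2-fold. Macrophage and endothelial markers were at 4.02 and 5.24 CPM in WT and at 15.7 and 29.5 CPM in KO. Of the defining markers, Amh was at 0 in both libraries and Cldn11 at 0 in WT with 5 UMIs in KO, while Insl3 gave 15 and 76 UMIs. Cldn11 and Insl3 were among the 10 genes whose detection kept barcodes from being scored, so the selection holds them low. The Leydig, Sertoli, macrophage, spermatogonia and early spermatocyte lists each include such genes. Without members with a score below 0, Leydig markers stood at 11.6 and 85.7 CPM, spermatogonia markers at 14.7 and 30.9 CPM and endothelial markers at 5.05 and 5.77 CPM. Peritubular and stromal markers were then at 6.51 and 49.8 CPM, Sertoli markers at 24.1 and 51.6 CPM, early spermatocyte markers at 85.8 and 122 CPM and macrophage markers at 4.04 and 9.79 CPM. The 2734 KO barcodes that were not scored had an X share of 3.02%. The part of RNA from other cells in the values above was not tested.

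Mitochondrially encoded RNA made up 1.10% of the UMIs of WT members and 1.77% of those of KO members, a ratio of 1.61 (1.597 to 1.62), and ribosomal protein RNA 4.62% and 4.90%, a ratio of 1.06. The mitochondrial rRNA mt-Rnr2 was at 2980 and 6909 CPM. The most abundant transcript was the rRNA entry CT010467.1, with 3.397% of WT and 4.09% of KO UMIs. Also among the 10 genes with the most UMIs were Ldhc, the sperm lactate dehydrogenase, at 8807 and 8313 CPM, Meig1, Spink2, Ubb, Pabpc1, Rbakdn and Ropn1l. Of the nuclear coding genes named here, Ubb, a polyubiquitin gene, had the largest difference, with a log2 ratio of -0.47.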

How the data were processed

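The GEXSCOPE kit gave single-cell transcript data from testis, as 1 WT and 1 KO library. The deposited values are UMI counts per gene and barcode. Per the methods, the authors removed reads without poly T, trimmed adapters and poly A (fastp), aligned the remaining read and assigned it to genes, and counted UMIs per gene and barcode. The submitters' processing notes name featureCounts 1.6.2 and STAR 2.5.3a. The build is named GRCh38 although the symbols are mouse. The libraries held 80283221 UMIs in 5756 barcodes (WT) and 82056760 in 7012 (KO).

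Here, counts were scaled to 10000 per barcode, log-transformed, z-scored over the scored barcodes of both libraries and averaged per marker set. Counts were then summed over members and expressed as CPM. Ratios have exact conditional intervals of 2 Poisson sums, and a sum of 0 was taken at 3 counts. The calculation of the ratio was run on simulated independent Poisson counts. These leave out variation between cells and between libraries, so the run does not measure the error of these data. Doublets were called per library with Scrublet in scanpy 1.11.5 (expected rate 0.06, 30 principal components), and members called doublets were kept in the main values. Python 3.11.15, numpy 2.4.6 and scipy 1.17.1 were used. Chromosomes came from GENCODE vM21 by symbol and promoters from RefSeq.

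Named genes were the panel genes and Alkbh5, the gene lists, the 15 with the largest excess over sets A and C, the 10 with the largest and the 10 with the smallest KO to WT ratio (at least 100 UMIs, a UMI in at least 10% of members of either library) and the 10 with the most UMIs, not all of which are reported here. The genes that dipped in the members, those that differed within the members and the X genes shown singly were chosen after their values were seen. Members and lists were chosen with earlier results of these data known.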

Additional observations from a re-analysis of the deposited data

How the results depend on the processing

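With 1 library per genotype no call had replicate support, so stability here means only that a value held under other processing. No paired analysis was possible because each genotype has 1 library. Depth limits genes under about 100 UMIs, whose ratios have wide intervals.

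The KO to WT ratio of the member share was 0.672 over all barcodes and 0.743 over sets A, B and C, and stayed within its interval under the 4 other choices of members. The 201 higher and 73 lower genes became 97 higher with at least 2 marker genes detected, 107 higher with a score above 0 and a lead of 0.25, 80 higher and 37 lower with thinned cells, 710 and 232 with 30 UMIs, 3499 and 985 with no minimum, 604 and 332 at 1.5-fold, and 116 lower with equal weight for the kinds of members. Chosen after seeing the data, leaving out members with a score below 0 gave 100 higher genes. Chosen in the same way, members that leaned to set C gave 40 higher and 42 lower, and those that leaned to set A 171 higher and 66 lower. Of those 100 genes, 96 were among the 201.

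The X share of members over set A was 1.42, 1.32, 1.61 and 1.47 in WT and 0.624, 0.610, 0.667 and 0.720 in KO with 2 markers detected, with the lead of 0.25, without doublets and with z-scores per library, and 3.02 and 2.06 with set A cells of own score above 0. The mitochondrial ratio was 1.49 and 1.48 with 2 markers detected and with the lead of 0.25, and the ribosomal protein ratio 1.02 in both and 1.06 without doublets. The Alkbh5 log2 value, which rests on the floor of 3 counts, lay between -5.26 and -4.06, and was -3.56 among members that leaned to set C, and 11 to 15 of the leading genes recurred. Of the medians of 16 gene lists under these alternatives, 183 moved by no more than the median counting error of the list's genes (the interval's arm on either side) and 9 by more. That error is one of single genes and is wide where UMIs are few, so the 183 do not show that the medians were steady. The recombination median counted among them although it went from 0.42 to 0.09 with equal weight for the kinds of members.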
